A study of Homo sapiens with 12 samples.

Results

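COLO320DM is an established human colorectal cancer line that carries MYC amplified on small extrachromosomal circles called double minutes. Described here is how its replicate 1 libraries differed from its replicates 2 and 3. The members are 6 of the 12 poly-A RNA sequencing libraries of the study: replicate 1 with each of the 2 plasmids (2 libraries) against replicates 2 and 3 with each plasmid (4 libraries). They were chosen by the replicate number in the sample titles after principal components of these same libraries had set replicate 1 apart, so the differences between them are given as a description, with no p-value.

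COLO320DM cells and, for comparison, SW480 cells, a line from a primary colon adenocarcinoma, were transfected with pCMV6-Entry (the empty vector) or with pCMV6-HKDC1, which expresses the hexokinase family member HKDC1 from the CMV promoter, with 3 libraries in each of 4 groups. All 4 groups received 10 µg of plasmid with Lipofectamine 2000 in Opti-MEM for 24 h, followed by a return to their usual serum-containing RPMI medium, so no group was left untransfected. The labels do not say whether replicates were separate cultures, whether replicate 1 was grown, transfected or sequenced at another time, how long after the medium change RNA was taken, or what share of cells took up plasmid. The spread between libraries may therefore be technical, and in these bulk samples fewer cells of a state and less RNA per cell cannot be told apart.

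The 6 COLO320DM libraries held 33790733 to 41594070 counts. The first principal component of the 6 (34.2% of the variance) put the replicate 1 libraries at −39.7 and −31.8 and the 4 others between 16.8 and 18.4, and the second (21.8%) separated the plasmids. Chi-squared per degree of freedom between libraries of a plasmid was 24.5 to 41.4 for replicate 1 against either other replicate and 3.18 to 3.79 between replicates 2 and 3. The line's labelled identity was checked against its markers: MYC stood at 3400 to 3620 CPM (counts per 1000000 of the library total, for the markers only without a further factor) and CDX2, an intestinal transcription factor, at 1420 to 1570 CPM in all 6 libraries. Of 12 colon epithelial markers KRT8 (116 to 158 CPM), KRT18 (81.0 to 102 CPM) and VIL1 (9.16 to 11.6 CPM) were present as well, while EPCAM (1.42 to 2.33 CPM) was low and CDH1 (0 to 0.0962 CPM), KRT19 (0 to 0.149 CPM) and the neuroendocrine markers CHGA and DDC were at or near 0. The SW480 markers KRT80 and KRT23 were at 0 to 0.192 CPM in the 6 libraries, against 57.3 to 155 CPM in SW480, while ANXA1 of the same list was at 80.5 to 90.9 CPM, within the SW480 range of 31.7 to 98.5 CPM. The 7 leukocyte markers summed to 34.9 to 44.0 CPM in replicate 1 and 42.3 to 46.9 CPM in the others, most of it PTPRC, with CD3E at 0 to 0.0249 CPM and MS4A1 at 0.

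Several textbook programmes of growing cells help to read these genes. Cholesterol is made from acetyl-CoA through the mevalonate pathway, and cells tune its enzymes together through SREBP2, a membrane-bound transcription factor that is released when sterols in the endoplasmic reticulum run low. Growth factor signals act through MAPK to switch on immediate early transcription factors and then feedback inhibitors that dampen the signal. Cells short of amino acids or with a stressed endoplasmic reticulum make more ATF4, which drives amino acid synthesis and transport.

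In each gene of the comparison the counts were scaled to CPM with TMM factors, which adjust the library totals,, and the change is the log2 fold change of replicate 1 over replicates 2 and 3, fitted with the plasmid held apart. A gene was listed as higher or lower where the fitted change was at least 1.5-fold and both replicate 1 libraries lay outside the range of the 4 others. Of 23684 genes tested, 530 (2.24%) were higher and 1082 (4.57%) were lower in replicate 1 by this rule, and over all genes the median change was −0.01. Many of these had low counts. Among the 13092 genes with a mean of at least 5 CPM on their higher side, 76 (0.581%) were higher and 185 (1.41%) were lower. Just inside the limit of 0.585 on the log2 scale stood WIF1 (0.59) and RBM12 (0.59) on the higher side and RHPN1 (−0.59) and PIM1 (−0.59) on the lower side, and just outside it stood FAM131B (0.58), ZNF518A (0.58), ZNF205 (−0.58) and ATF5 (−0.58).

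The plasmids' changes are set side by side as a description, since the contrast was chosen because both replicate 1 libraries stood apart together. Within single plasmids, where the rule rests on 1 library against 2, 1372 genes (5.79%) were higher and 2255 (9.52%) lower in replicate 1 of the empty-vector group. In the HKDC1 group 1154 (4.87%) were higher and 1907 (8.05%) lower. Of the empty-vector genes 853 of the 1372 (62.2%) and 1745 of the 2255 (77.4%) had the same direction in the HKDC1 group, against 46.2% and 50.3% of all genes in that direction. Of 148 genes with at least 5 CPM that were higher by the rule in replicate 1 with empty vector (1.13% of such genes), 145 (98% against 52% of all such genes) also had a change above 0 with the HKDC1 plasmid and 43 (29.1%) passed the rule there, against 0.535% of all such genes. Of 370 that were lower with empty vector (2.83%), 367 (99.2% against 48%) had a change below 0 with the HKDC1 plasmid and 89 (24.1%) passed the rule, against 1.06% of all. Their median change was −0.71 (empty vector) and −0.43 (HKDC1 plasmid). Seen from the other side, 69 of 70 genes higher with the HKDC1 plasmid and 138 of 139 lower had the same direction with empty vector. Across the 16761 genes with at least 1 CPM, the changes of the 2 plasmids correlated at 0.627, and over all 23684 genes at 0.239, a description over genes that share libraries and are not independent replicates.

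Measures of library make-up moved with replicate 1. Mitochondrial genes took 8.91% and 9.40% of its counts against 7.59 to 7.80% in the others, and genes of cytosolic ribosomal proteins took 6.88% and 7.13% against 7.93 to 8.52%. The change also followed the GC content of the transcript: over 10 bins of the genes with at least 1 CPM, the median ran from 0.17 in the lowest bin (23.1 to 38.5% GC) to −0.25 in the highest (61.3 to 85.5% GC), and the share of genes lower by the rule from 0.722% to 7.93%. This gradient was steeper with empty vector (0.24 to −0.37) than with the HKDC1 plasmid (0.09 to −0.13), and between replicates 2 and 3 the median stayed between 0.00 and 0.02. Every list below is therefore also given from a fit with an offset that levels the change over GC content in each library. In that fit 481 genes (2.03%) were higher and 900 (3.80%) lower, of which 402 and 792 were shared with the fit without it. The part of GC content and library make-up in the results was not tested beyond this offset.

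**Figure D1:**
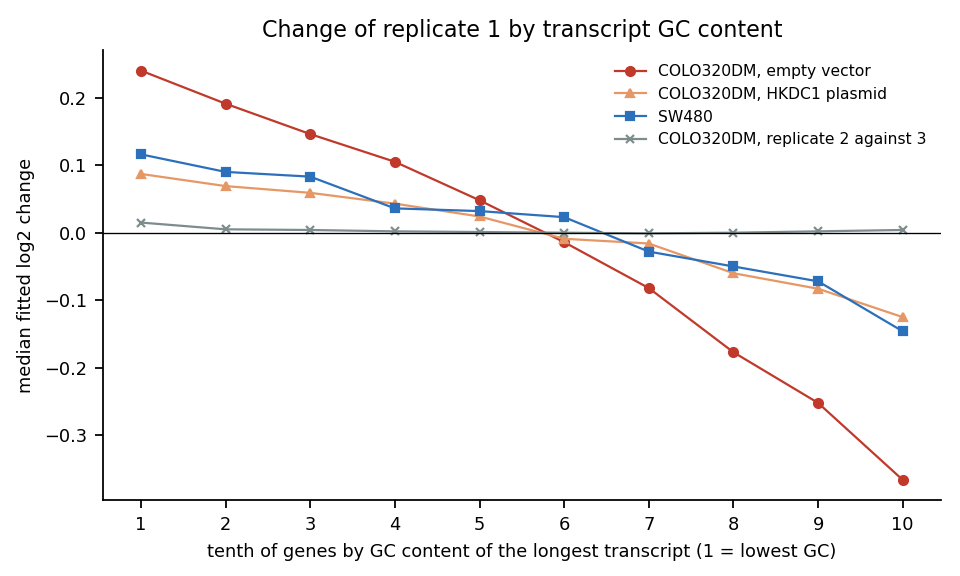
Median fitted log2 change of replicate 1 against replicates 2 and 3 (y axis) in 10 bins of genes ordered by the GC content of their longest transcript (x axis), for each plasmid of COLO320DM and for SW480, with replicate 2 against 3 of COLO320DM in grey. The empty-vector line runs from 0.24 to −0.37, the HKDC1 line from 0.09 to −0.13 and the SW480 line from 0.12 to −0.15, while the grey line stays near 0.

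Cholesterol synthesis and uptake genes were the group with the lowest median. All but PMVK of the 26 genes tested had a change below 0, with a median of −0.57 against −0.01 over all genes, and 11 were lower by the rule, against 4.57% of all genes. None was higher. With the GC offset the median was −0.55 and 10 were lower: MVD and TM7SF2 were among those that left the count and IDI1 and HSD17B7 joined it. Of the 11, 9 are synthesis enzymes (HMGCS1, MVD, FDFT1, SQLE, TM7SF2, MSMO1 and DHCR7 among them), and 2, with INSIG1, belong to uptake and control.

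The early mevalonate enzymes stood lower in both replicate 1 libraries. HMGCS1, which makes HMG-CoA, had 146, 259 and 271 CPM (empty vector) and 140.5, 297 and 290.0 CPM (HKDC1 plasmid), given for replicates 1, 2 and 3 in this order, as in every such series. Both replicate 1 values lay below 150 CPM and the 4 others at 259 CPM or more, and the fitted change was −0.96 (SE 0.07). MVD, the decarboxylase that ends the mevalonate steps, had 23.9, 45.1 and 47.3 CPM (empty vector) and 29.9, 48.7 and 47.9 CPM (HKDC1 plasmid). The groups did not overlap, and the change was −0.82 (SE 0.08). PMVK, the kinase just before it, was the exception, with 22.01, 25.6 and 24.9 CPM (empty vector) and 28.1, 23.7 and 24.7 CPM (HKDC1 plasmid): its replicate 1 library was the lowest with empty vector and the highest with the HKDC1 plasmid.

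Enzymes of the squalene and sterol steps were lower too. FDFT1, squalene synthase, had 144, 264 and 281 CPM (empty vector) and 154, 298 and 287 CPM (HKDC1 plasmid), a change of −0.92 (SE 0.07). SQLE, the squalene epoxidase, had 124, 183 and 193 CPM (empty vector) and 122, 201 and 204 CPM (HKDC1 plasmid), a change of −0.67 (SE 0.06). No library of either gene overlapped between replicate 1 and the others. Among the later steps, MSMO1, a sterol methyl oxidase, had 64.9, 111 and 117 CPM (empty vector) and 58.1, 131 and 121 CPM (HKDC1 plasmid). DHCR7, which makes the last double-bond reduction to cholesterol, had 58.3, 103 and 103 CPM (empty vector) and 67.5, 110.5 and 103 CPM (HKDC1 plasmid). After PMVK, the smallest differences in the list were those of SC5D (−0.11), NSDHL (−0.26), EBP (−0.27) and CYP51A1 (−0.28), all below 0 and short of the rule.

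Feedback control was lower as well. INSIG1, which retains the SREBP complex in the endoplasmic reticulum and is itself an SREBP target, had 60.0, 96.2 and 103 CPM (empty vector) and 58.4, 114 and 104 CPM (HKDC1 plasmid), a change of −0.81 (SE 0.12). SREBF2, the gene of SREBP2 itself, had a change of −0.43 (241 against 323 CPM), short of the rule. NPC1L1, a sterol transporter, had under 0.4 CPM in every COLO320DM library and was too low to compare.

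For the cholesterol genes lower by the rule, the 250 bases before the start site were read from RefSeq (GRCh38.p14), and they are shown because these genes were lower together. Of the 26 genes 19 had a promoter entry, among them 6 of the 11. The CCAAT box, the letters bound by NF-Y, a factor that works beside SREBP at many sterol genes, was searched as CCAAT on both strands (ATTGG on the printed strand marks a box on the other). It was found in 16 of the 19 promoters and in all 6, against 33.0% of 27305 promoters. Genes of the list that were not lower by the rule held it too, among them MVK and NSDHL with 5 matches each. In the list of ATF4 genes described below, 15 of 27 promoters held it. The sterol element of the form TCACNCCAC was found in 1 of the 19 (SREBF2), against 0.88% of promoters. The stretches around the boxes of 5 of the 6 follow, on the gene's strand, 5′ to 3′, with the boxes in capitals and limited to bases outside the gene as the deposited table places it. A match describes letters and is not a binding site.
MSMO1 (chr4:165327454-165327666, plus strand): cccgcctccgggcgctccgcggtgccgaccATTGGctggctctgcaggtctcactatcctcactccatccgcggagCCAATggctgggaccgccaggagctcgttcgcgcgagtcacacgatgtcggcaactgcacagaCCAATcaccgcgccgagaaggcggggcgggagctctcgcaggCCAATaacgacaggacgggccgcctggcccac
HMGCS1 (chr5:43313533-43313597, minus strand): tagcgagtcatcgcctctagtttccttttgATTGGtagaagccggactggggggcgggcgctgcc
MVD (chr16:88663162-88663280, minus strand): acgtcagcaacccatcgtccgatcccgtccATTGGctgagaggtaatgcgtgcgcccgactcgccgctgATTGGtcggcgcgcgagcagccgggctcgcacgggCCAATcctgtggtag
INSIG1 (chr7:155297678-155297742, plus strand): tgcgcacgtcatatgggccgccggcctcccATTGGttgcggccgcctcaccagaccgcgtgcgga
TM7SF2 (chr11:65111768-65111832, plus strand): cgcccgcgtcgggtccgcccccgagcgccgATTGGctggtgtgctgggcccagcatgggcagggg

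SW480, whose libraries took no part in choosing the COLO320DM contrast, had its own split of replicate 1 from the others, and there the cholesterol genes did not follow COLO320DM. The SW480 split was itself known beforehand, so its adjusted p-values here and below describe size against the spread of these libraries. Of the 26 genes 12 were higher in replicate 1 of SW480 by edgeR's quasi-likelihood test and 4 were lower. The SW480 background was 22.6% and 23.2% of all genes. Under scaling to library totals 11 were higher and 8 lower, beside 3193 and 8069 of all 23684 genes. The SW480 median of 0.13 became −0.01 under that scaling. HMGCS1 was higher there (111 against 72.0 CPM, log2 change 0.64, adjusted p = 8.96e-08), as were SQLE (0.49, adjusted p = 1.06e-07) and LSS, the lanosterol synthase (0.51, adjusted p = 0.000707). The difference between the lines contains the COLO320DM term that chose the contrast, so here and in what follows its calls at an adjusted p under 0.05 describe size against spread and are not independent evidence, and single genes are given without p. In 18 of the 26 genes the change was lower in COLO320DM than in SW480, and in none was it higher, against 14.4% and 11.6% of all genes. The count was 17 with library-total scaling, 18 with DESeq2 size factors and 20 with the GC offset. Among these differences were those of HMGCS1 (−1.59), MSMO1 (−1.32) and FDFT1 (−1.30). TM7SF2 was lower in both lines (SW480 −0.38, adjusted p = 0.000494), and so was SREBF2 (−0.38, adjusted p = 5.33e-07).

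**Figure D2:**
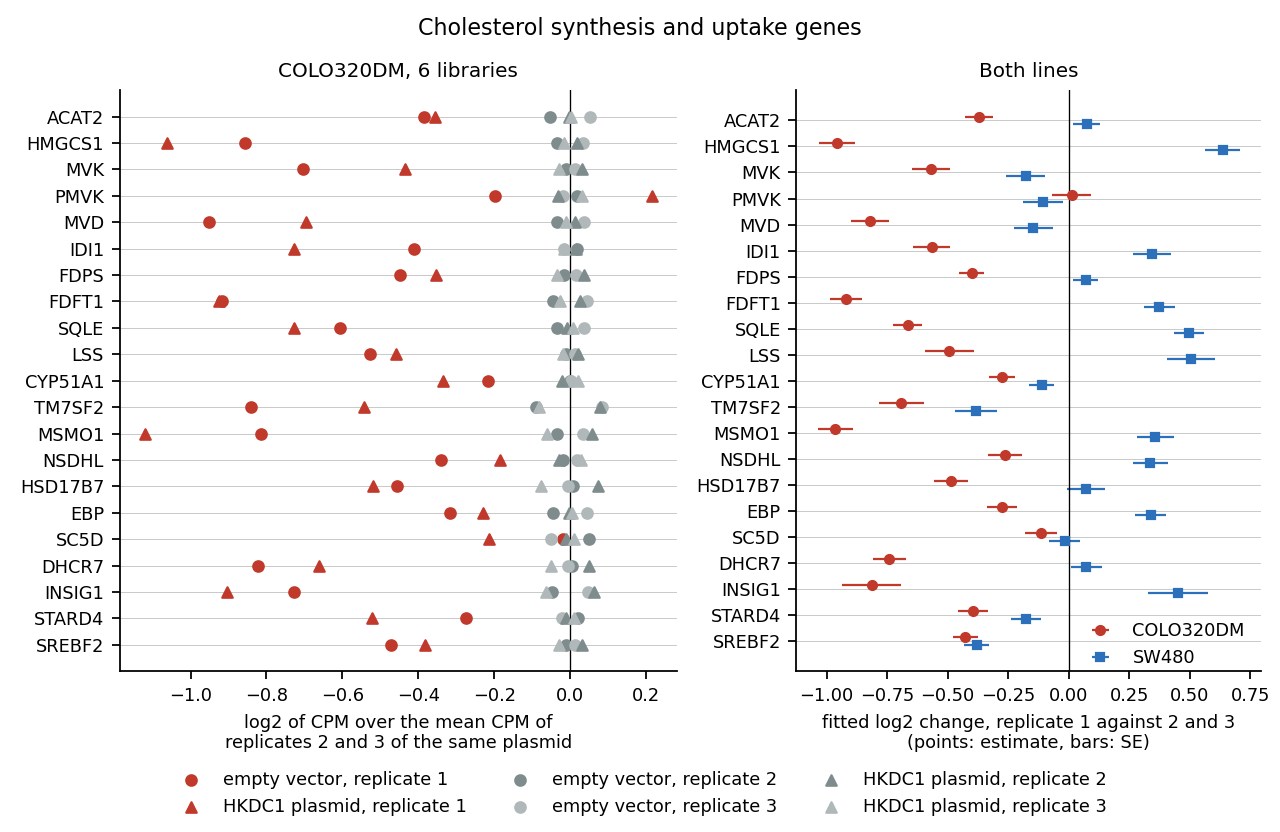
Left, 21 cholesterol genes with at least 1 CPM in the 6 COLO320DM libraries, as the log2 of its CPM over the mean of replicates 2 and 3 of the same plasmid (red circles and triangles: replicate 1; grey: replicates 2 and 3). Right, the fitted log2 change with its SE in COLO320DM (red) and SW480 (blue). Replicate 1 lies left of 0 in COLO320DM for every gene but PMVK, while SW480 points such as HMGCS1 (0.64) and LSS (0.51) lie right of 0.

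Fatty acid synthesis and desaturation genes were lower in replicate 1 to a smaller extent. The median of 14 genes was −0.36, and 4 were lower by the rule, against 4.57% of all genes: ACSS2, FASN, FADS2 and MLXIPL. With the GC offset the median was −0.26 and ACSS2 alone passed. ACSS2, which turns acetate into acetyl-CoA, had 15.8, 33.5 and 35.3 CPM (empty vector) and 17.1, 33.8 and 34.2 CPM (HKDC1 plasmid), a change of −1.05 (SE 0.07). FASN, the fatty acid synthase, had 198, 364 and 369 CPM (empty vector) and 262, 403 and 396 CPM (HKDC1 plasmid), so its replicate 1 values lay below the 4 others in both plasmids. SCD, the desaturase that makes oleate, had 516, 689 and 705 CPM (empty vector) and 523, 758 and 746 CPM (HKDC1 plasmid), a change of −0.48 (SE 0.05) that missed the fold limit without overlap of libraries. ACACA (−0.04), ACSL3 (0.02) and GPAM (0.05) were close to 0. In SW480, ACSS2 was lower as well (−0.61, adjusted p = 1.41e-08) and FASN was higher (0.58, adjusted p = 0.0367).

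Messenger RNAs encoded by the mitochondrial genome, the core subunits of the respiratory chain, were higher in replicate 1. All 13 had a change above 0, with a median of 0.50, and 6 were higher by the rule, against 2.24% of all genes. With the GC offset the median was 0.43 and 3 passed. The ATP synthase transcript MT-ATP8 had 1189.9, 643 and 632 CPM (empty vector) and 1294, 687 and 679.8 CPM (HKDC1 plasmid), a change of 0.91 (SE 0.05). MT-ATP6, which overlaps it on the same transcript, had 3016, 1739 and 1855 CPM (empty vector) and 3375, 1755 and 1800.5 CPM (HKDC1 plasmid). Replicate 1 of both plasmids stood above all others. The cytochrome oxidase transcripts differed in size: MT-CO3 had a change of 0.65 and MT-CO1 one of 0.15 (20758 against 18646 CPM). All 13 were also higher in replicate 1 of SW480 by the test (median 0.42), against 22.6% of all genes. MT-ATP8 had a log2 change of 0.75 there (adjusted p = 1.57e-13). Nuclear-encoded subunits of the same complexes had a median of −0.03 over 26 genes, and none passed the rule.

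Genes of cytosolic ribosomal proteins all had a change below 0 in replicate 1 and none of the 26 passed the rule. The changes ran from −0.50 to −0.08, with a median of −0.28 (−0.27 with the GC offset), or −0.36 (empty vector) and −0.19 (HKDC1 plasmid). RPS2, a subunit of the small particle, had 1871, 2955 and 3107 CPM (empty vector) and 2190.2, 2779 and 2692 CPM (HKDC1 plasmid), a change of −0.50 (SE 0.06), and RPL18 of the large one had 397 against 539.7 CPM on average, a change of −0.45 (SE 0.06). In 25 of the 26 the change was lower than in SW480 (19 with library-total scaling, 24 with DESeq2 size factors and 23 with the GC offset), where the median was 0.08, or −0.06 with library-total scaling. Of all genes 14.4% had a lower change in COLO320DM by the same test, or 2039 of 23684 with library-total scaling. Host genes of small nucleolar RNAs, which like ribosomal protein genes belong to the translation-linked class, had a change below 0 in 14 of 14, with a median of −0.32 and none past the rule. GAS5 had 154, 194 and 204 CPM (empty vector) and 138, 198 and 177 CPM (HKDC1 plasmid), a change of −0.41 (SE 0.06). Here the SW480 median lay on the same side (−0.35). By the test 10 of 14 were lower there and 3 higher, against 23.2% and 22.6% of all genes. In 4 the change was lower in COLO320DM than in SW480 and in 3 it was higher, against 14.4% and 11.6% of all genes. Nucleolar assembly factors and MYC targets stood slightly above 0 instead: the median of 22 genes was 0.11, with NOP58 at 0.38 and NCL at 0.23, and none passed the rule.

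Among single genes, TFRC led the higher side with NXPH1 (chromosome 7, a secreted neurexin ligand). TFRC (the transferrin receptor, which brings iron into cells; chromosome 3, 196027183–196082096 on GRCh38) had 306, 161 and 149 CPM (empty vector) and 315, 159 and 171 CPM (HKDC1 plasmid). Replicate 1 exceeded every other library, and the change was 0.95 (SE 0.05). In SW480 TFRC was higher in replicate 1 as well (676 against 326 CPM, log2 change 1.06, adjusted p = 2.51e-16), and the difference between the lines was −0.10. NXPH1 had 8.58, 3.93 and 4.17 CPM (empty vector) and 8.98, 4.95 and 4.66 CPM (HKDC1 plasmid), a change of 0.99 (SE 0.13). CXCR4, the chemokine receptor for CXCL12, had 14.3, 6.74 and 7.92 CPM (empty vector) and 14.6, 8.62 and 8.02 CPM (HKDC1 plasmid), a change of 0.89 (SE 0.10). In SW480 it was lower in replicate 1 (−0.79, adjusted p = 8.47e-05), and the difference between the lines was 1.68.

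The higher side also held BRCA2. This DNA repair factor of homologous recombination had 70.2, 39.1 and 37.4 CPM (empty vector) and 60.7, 36.0 and 40.3 CPM (HKDC1 plasmid), a change of 0.78 (SE 0.07). DNAJA1, a cochaperone of HSP70, had 161, 89.1 and 92.0 CPM (empty vector) and 157, 102 and 104 CPM (HKDC1 plasmid), a change of 0.72 (SE 0.07), and KCTD12, an auxiliary subunit of GABA-B receptors, had 504 against 310.2 CPM on average. NEXN, an actin filament binding protein, had 26.7 against 13.8 CPM (0.95) and PHLDB2, which anchors microtubules at the cell cortex, had 52.1 against 32.2 CPM (0.69). NRK (0.90), EGFLAM (0.87), FAIM (0.74), CAPN6 (0.74) and XK (0.72) completed the 15 with MT-ATP8 and MT-ATP6. Of the 15, 8 were also higher in replicate 1 of SW480 and CXCR4 alone was lower. Among all genes with at least 5 CPM 32.6% were higher and 23.5% lower there.

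CD44 had the lowest change of the 30 named genes. CD44, the hyaluronan receptor and a marker of undifferentiated tumour cells (chromosome 11, 35138870–35232402 on GRCh38), had 4.78, 14.8 and 14.4 CPM (empty vector) and 5.10, 14.1 and 15.8 CPM (HKDC1 plasmid). The replicate 1 libraries stood at about 5 CPM and the others at 14.1 CPM or more, a change of −1.58 (SE 0.09), and with the GC offset −1.64. In SW480 CD44 was higher in replicate 1 (56.8 against 29.6 CPM, log2 change 0.94, adjusted p = 1.66e-12), and the difference between the lines was −2.52. PLA2G3, a secreted phospholipase, had 3.79, 10.7 and 10.1 CPM (empty vector) and 3.71, 11.4 and 10.5 CPM (HKDC1 plasmid), a change of −1.50 (SE 0.12), and was at or close to 0 in SW480. CNR1, a cannabinoid receptor, had 3.75, 6.94 and 7.89 CPM (empty vector) and 3.34, 8.34 and 7.64 CPM (HKDC1 plasmid).

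Receptors and neuronal genes were among the rest of the lower side. FGFR3, a fibroblast growth factor receptor, had 2.73, 5.89 and 6.16 CPM (empty vector) and 3.10, 6.47 and 4.98 CPM (HKDC1 plasmid), a change of −1.01 (SE 0.14). RTN4R, the Nogo receptor, had 7.67 against 14.8 CPM and TUBB3, a neuronal tubulin, had 3.63, 7.79 and 7.94 CPM (empty vector) and 4.20, 7.56 and 7.61 CPM (HKDC1 plasmid). With the GC offset TUBB3 was at −0.78 and FGFR3 at −0.80. DHRS2 had 13.6 against 25.6 CPM, CLU, a secreted chaperone, 5.29 against 9.74 CPM, SCARF2 5.61 against 10.5 CPM, LIMCH1 5.75 against 10.9 CPM and the histone variant gene H2AJ 5.24 against 9.65 CPM. With ACSS2, MSMO1, HMGCS1 and FDFT1 these make 15, of which 7 were higher and 5 lower in replicate 1 of SW480. The shares of all genes with at least 5 CPM were 32.6% and 23.5%.

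**Figure D3:**
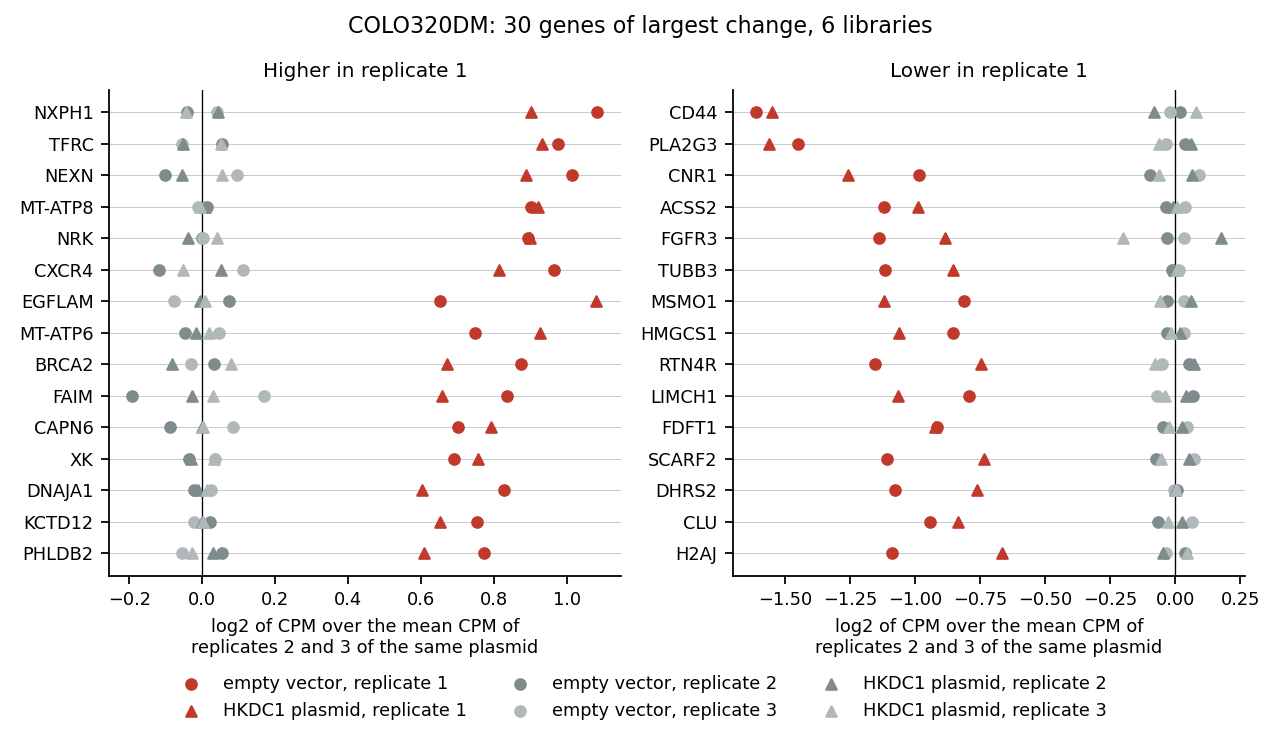
The 15 genes highest and the 15 lowest in replicate 1 among protein-coding genes with at least 5 CPM and at least 1.5-fold in each plasmid, as the log2 of the CPM of each of the 6 COLO320DM libraries over the mean of replicates 2 and 3 of the same plasmid (x axis). Red points are replicate 1 and grey points replicates 2 and 3, with circles for empty vector and triangles for the HKDC1 plasmid. No red point overlaps the grey ones, as the choice of these genes requires.

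Feedback genes of MAPK signalling were mixed. Of 14 genes 5 were lower by the rule and 1 was higher, against 4.57% and 2.24% of all genes, and the median was −0.14 (−0.02 with the GC offset, where 4 were lower and none higher). SPRY4, an inhibitor of receptor tyrosine kinase signals, had 0.165, 0.977 and 1.11 CPM (empty vector) and 0.195, 1.04 and 0.984 CPM (HKDC1 plasmid), a change of −2.50 (SE 0.27). Its replicate 1 libraries were far below the rest, though at under 1.2 CPM in every library. DUSP6, the ERK phosphatase, had 2.36, 4.15 and 3.80 CPM (empty vector) and 2.37, 4.09 and 4.20 CPM (HKDC1 plasmid), a change of −0.78 (SE 0.12), and PHLDA1 7.17 against 11.4 CPM on average (−0.67). EPHA2 (−0.63) and DUSP4, with under 0.1 CPM, also passed on the lower side, and SPRY1 had 3.29 against 2.12 CPM (0.63, SE 0.15). SPRY4 and DUSP6 were lower in replicate 1 of SW480 too (−0.52, adjusted p = 4.53e-08; −0.49, adjusted p = 2.5e-07).

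Immediate early transcription factors were below 0 in 20 of 22, with a median of −0.26 (−0.10 with the GC offset). On the lower side 3 passed, against 4.57% of all genes. EGR1 had 2.098, 3.599 and 3.96 CPM (empty vector) and 1.71, 5.54 and 5.30 CPM (HKDC1 plasmid), a change of −1.253 (SE 0.15). FOS had 1.72, 3.03 and 2.80 CPM (empty vector) and 1.63, 3.56 and 3.91 CPM (HKDC1 plasmid), a change of −0.97 (SE 0.15). ZFP36, which destabilises AU-rich mRNAs, had 0.994 against 1.78 CPM on average. All 3 were low genes in this line, and MYC, counted with this list and amplified here, was level. It had 3287, 3369 and 3406 CPM (empty vector) and 3599, 3479.7 and 3468 CPM (HKDC1 plasmid), a change of 0.00. In SW480, EGR1 (−1.61, adjusted p = 1.28e-13) and FOS (−0.96, adjusted p = 2.3e-10) were lower in replicate 1. There 15 of the 22 genes were lower by the test, against 23.2% of all genes.

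Targets of TGF-beta and BMP had a median of −0.34 (the same with the GC offset to 2 decimals). By the rule 3 of 15 were lower, against 4.57% of all genes. SMAD7, the inhibitory SMAD, had 1.79, 3.34 and 3.29 CPM (empty vector) and 1.32, 3.42 and 2.95 CPM (HKDC1 plasmid), a change of −1.06 (SE 0.15). ID3, an inhibitor of basic helix-loop-helix factors, had 28.4, 53.8 and 52.2 CPM (empty vector) and 33.0, 52.8 and 48.5 CPM (HKDC1 plasmid), a change of −0.76 (SE 0.08), and the ligand BMP2 had 1.16 against 2.05 CPM. For SMAD7 (−1.27) and ID3 (−1.11) the change was lower than in SW480. Of 17 Notch genes 3 were lower (HES1, HES4 and DLL4), against the same 4.57% of all genes. Their list's median of −0.21 turned to 0.03 with the GC offset. JAG1, a Notch ligand, had 44.2 against 61.8 CPM (−0.49).

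The ATF4 list leaned down in both lines, more in SW480. In COLO320DM 26 of 32 genes were below 0, with a median of −0.24 (−0.18 with the GC offset). By the rule 3 were lower, against 4.57% of all genes. DDIT3, the stress factor CHOP, had 67.4, 114 and 117 CPM (empty vector) and 63.9, 117 and 111 CPM (HKDC1 plasmid), a change of −0.80 (SE 0.07). NUPR1 had 4.23 against 7.20 CPM (−0.77), and GDF15, a secreted stress cytokine, had 0.0943, 0.786 and 0.949 CPM (empty vector) and 0.171, 0.672 and 0.839 CPM (HKDC1 plasmid), a change of −2.60 (SE 0.35) at under 1 CPM. ATF4 itself had a change of −0.20, and the amino acid genes ASNS (−0.23), PSAT1 (0.08) and SLC7A11 (0.40) did not share a direction. In SW480, 30 of the 32 were lower in replicate 1 (median −0.76), against 23.2% of all genes. In 23 of the 32 the change was higher in COLO320DM than in SW480 and in 2 it was lower, against 11.6% and 14.4% of all genes. ASNS was among the 23 (1.196), and DDIT3 was lower in SW480 as well (−1.11, adjusted p = 2.92e-12).

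Chaperones of the heat shock response leaned up in both lines. In COLO320DM 11 of 15 were above 0, with a median of 0.21 (0.17 with the GC offset), and DNAJA1 passed the rule. HSPA8, the constitutive HSP70, had 719, 493 and 492 CPM (empty vector) and 784, 573 and 616 CPM (HKDC1 plasmid), a change of 0.47 (SE 0.14). HSPE1, the mitochondrial cochaperonin, had 171, 118 and 120.0 CPM (empty vector) and 176, 121 and 128 CPM (HKDC1 plasmid), a change of 0.52 (SE 0.06). Replicate 1 stood above the other libraries for both. In SW480, 13 of the 15 were higher by the test (median 0.83), against 22.6% of all genes. In 11 the change was lower in COLO320DM than in SW480 (6 with library-total scaling), against 14.4% of all genes. Chaperones of the endoplasmic reticulum had a median of −0.04 in COLO320DM with no gene past the rule. Their SW480 median was 0.48 and 17 of 19 were higher there, against 22.6% of all genes. With library-total scaling these were 0.34 and 11, beside 3193 of all 23684 genes. In 15 of the 19 the change was lower in COLO320DM than in SW480, against 14.4% of all genes.

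Genes of the circadian clock and of glucocorticoid response held 6 of 20 members lower by the rule, against 4.57% of all genes, and none higher. The median was −0.22 (−0.30 with the GC offset, where 5 were lower). Of 14 clock genes tested 4 passed the rule, among them, at different levels, DBP, NR1D1 and PER1. DBP, a clock output factor, had 17.3, 35.8 and 35.3 CPM (empty vector) and 22.6, 34.0 and 33.5 CPM (HKDC1 plasmid), a change of −0.81 (SE 0.09). NR1D1, the repressor REV-ERB alpha, had 11.7, 23.5 and 22.6 CPM (empty vector) and 13.1, 20.3 and 20.7 CPM (HKDC1 plasmid), a change of −0.81 (SE 0.08). PER1, a clock repressor that glucocorticoids also induce, had 25.4, 46.4 and 47.9 CPM (empty vector) and 31.3, 48.2 and 48.0 CPM (HKDC1 plasmid), a change of −0.75 (SE 0.09). All 3 were lower in both replicate 1 libraries, while the clock genes BMAL1 (−0.11), CRY1 (−0.04), PER2 (−0.12) and NR1D2 (−0.15) differed little. TSC22D3, the glucocorticoid-induced leucine zipper, had 56.5, 84.2 and 88.9 CPM (empty vector) and 50.9, 86.2 and 87.3 CPM (HKDC1 plasmid), a change of −0.69 (SE 0.07), and FKBP5, another glucocorticoid target, stood on the other side (0.23). In SW480 TSC22D3 was lower (−2.66, adjusted p = 2.42e-18), with a difference between the lines of 1.97. NR1D1 (−0.47, adjusted p = 5.05e-06) and PER1 (−0.69, adjusted p = 2.62e-06) were lower there too, and DBP did not pass (−0.26, adjusted p = 0.074).

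Genes that FOXO factors raise when nutrients are low had a change below 0 in 14 of 16, with a median of −0.21 (−0.34 with the GC offset), and 3 were lower by the rule, against 4.57% of all genes. PDK4, the kinase that shuts pyruvate out of the TCA cycle, had 13.9, 20.3 and 18.8 CPM (empty vector) and 12.7, 21.6 and 21.9 CPM (HKDC1 plasmid), a change of −0.63 (SE 0.10). BCL6 had 12.5 against 19.5 CPM (−0.65) and YPEL3 12.4 against 19.6 CPM (−0.67). Glycolysis showed no common direction. Its 22 genes had a median of −0.00 (0.10 with the GC offset), with 1 gene higher by the rule (LDHA, against 2.24% of all genes) and 1 lower (ALDOC, against 4.57%). Neither passed with the GC offset (LDHA 0.54, ALDOC −0.46). LDHA, which reduces pyruvate to lactate, had 1438, 942 and 1025 CPM (empty vector) and 1618, 1000.2 and 1026 CPM (HKDC1 plasmid), a change of 0.61 (SE 0.05), and was higher in SW480 as well (0.69, adjusted p = 9.23e-12). ALDOC had 41.9 against 62.9 CPM (−0.59, SE 0.08) and the hexokinase HK1 had 31.9 against 41.2 CPM (−0.37). HIF targets split too: NDRG1 was lower (3.44 against 5.73 CPM, −0.74, SE 0.13) and BNIP3 stood above 0 (138 against 95.6 CPM, 0.53, SE 0.07), with a list median of 0.03, or −0.04 with the GC offset.

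Cell-cycle genes stood slightly above 0. Of 32 genes of DNA replication 27 were above 0, with a median of 0.22 (0.23 with the GC offset), and CDT1, a licensing factor, was the exception past the rule on the lower side. It had 54.4, 97.4 and 95.4 CPM (empty vector) and 69.0, 98.2 and 95.5 CPM (HKDC1 plasmid), a change of −0.65 (SE 0.09). With the GC offset CDT1 was at −0.40 and no gene passed. POLE2, a polymerase subunit, had 17.3 against 11.7 CPM (0.56). Mitotic genes had a median of 0.13, or 0.04 with the GC offset, and none passed, with MKI67 at 185 against 152 CPM (0.29). In SW480, 26 of the 32 replication genes and 26 of the 30 mitotic genes were higher in replicate 1 by the test and none was lower (21 and 20 with library-total scaling, with 1 replication gene lower). Of all genes 22.6% were higher there, or 3193 of 23684 with library-total scaling. Replication-dependent histone genes went the other way in COLO320DM, with 15 of 17 below 0 and a median of −0.48 (−0.47 with the GC offset). By the rule 3 were lower, against 4.57% of all genes (5 with the GC offset, against 3.80%). H2BC21, among the 3, had 13.5, 20.6 and 22.01 CPM (empty vector) and 12.9, 19.7 and 19.5 CPM (HKDC1 plasmid). Most mRNAs of this histone class end without a poly-A tail, so a poly-A library captures them only in part.

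Genes of secretory and neuroendocrine cells, a feature reported for this line, had a median of −0.53 over 16 (−0.45 with the GC offset). Of the 16, 5 were lower by the rule, all at low levels, against 4.57% of all genes. CHGB, a granin of secretory granules, had 1.249, 2.097 and 2.68 CPM (empty vector) and 1.34, 1.93 and 2.52 CPM (HKDC1 plasmid), a change of −0.83 (SE 0.22). SYP, a vesicle protein, had 1.53, 2.12 and 2.45 CPM (empty vector) and 1.32, 2.18 and 2.40 CPM (HKDC1 plasmid), a change of −0.68 (SE 0.17), and PCSK1N 4.22 against 6.67 CPM. The more abundant UCHL1 (473 against 485 CPM), CPE (53.5 against 58.4 CPM) and SNAP25 (33.8 against 29.6 CPM) did not pass. Matrix genes were lower in 3 of 19, against the same 4.57% of all genes: COL6A1 (0.552 against 1.69 CPM), THBS1 (1.41 against 2.44 CPM) and SPARC, under 1 CPM. Of the 7 fibroblast markers, which summed to 41.7 to 47.0 CPM in replicate 1 and 63.5 to 66.9 CPM in the others, COL3A1 took the largest part with 28.0 to 31.2 against 43.9 to 48.3 CPM. COL1A1 (7.32 to 8.32 against 9.41 to 10.4 CPM) and PDGFRB (5.56 to 6.82 against 7.21 to 7.79 CPM) lay on the same side. DCN and COL1A2, which define fibroblasts beside it, were at 0 to 0.0497 CPM in all 6 libraries, and the part of other cells in the matrix genes was not tested. Metallothioneins and zinc transporters had a median of −0.54 over 7 genes, with MT2A at 11.2 against 16.2 CPM (−0.54, SE 0.11) and MT1G and MT1F lower by the rule at under 2 CPM.

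Of the 35 lists 26 had a median below 0 and 9 above, and 12 held no gene past the rule. The remaining lists gave few members past it, to be read against 2.24% of all genes higher and 4.57% lower. Interferon targets had 1 higher (IFI44) and 3 lower of 24, antigen presentation 1 lower of 13, p53 targets 2 lower of 20 (BBC3 with 6.42 against 11.4 CPM, and GDF15), NF-kappaB targets 1 lower of 16 (ICAM1, 0.608 against 1.39 CPM), and autophagy and lysosome genes 1 lower of 23 (WIPI1, 5.36 against 8.91 CPM). IFI44 and BBC3 no longer passed with the GC offset, and 2 interferon targets and 1 p53 target were lower. The lists of WNT targets, NRF2 targets, YAP targets, nuclear-retained RNAs and small non-polyadenylated RNAs had no member past it, and their medians ran from −0.16 to 0.15.

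**Figure D4:**
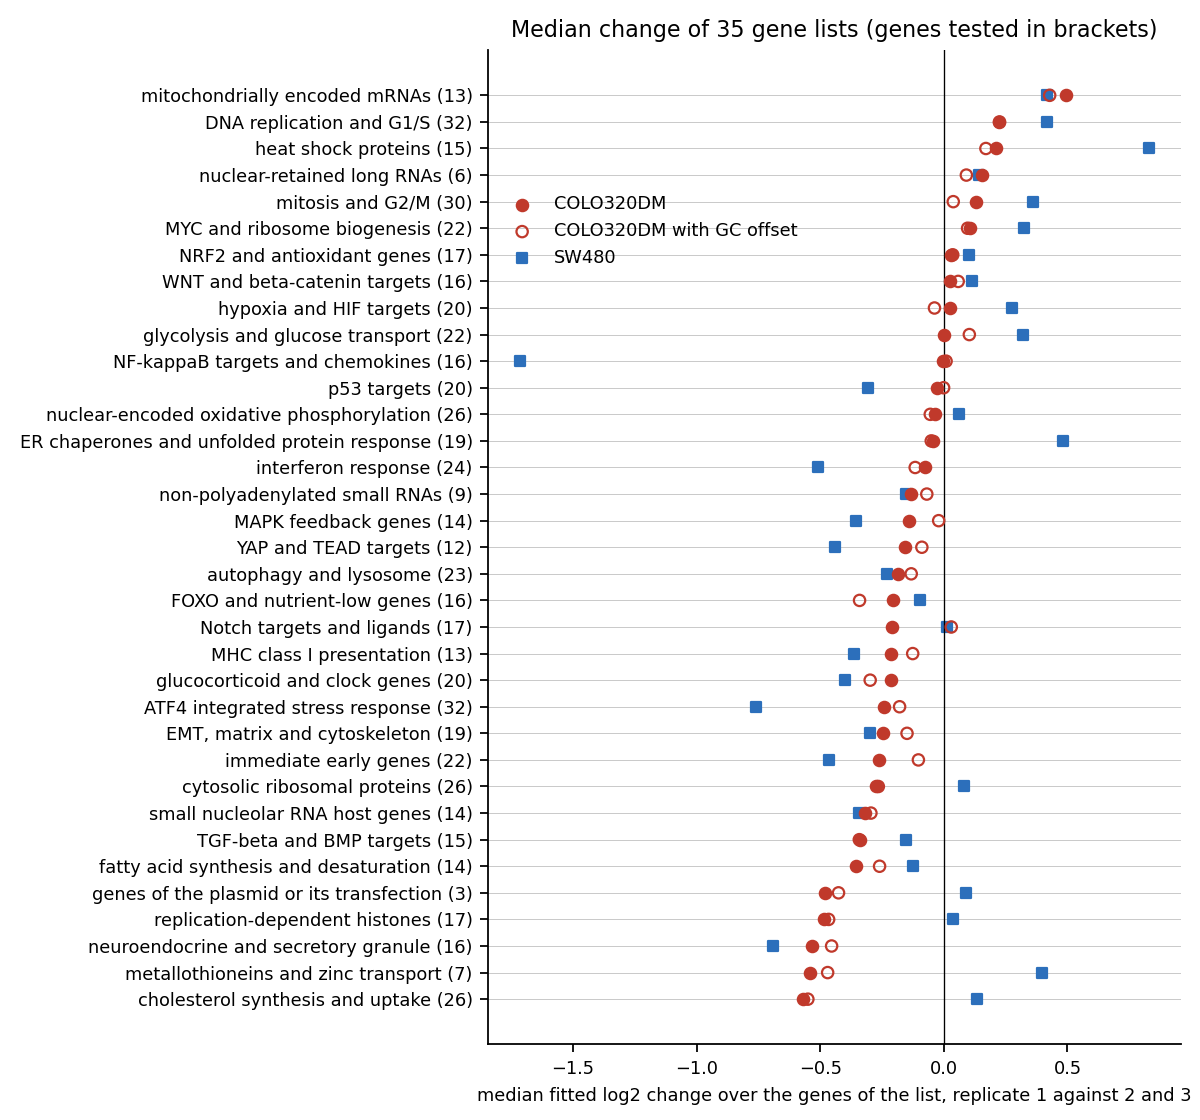
Median fitted log2 change of replicate 1 against replicates 2 and 3 (x axis) for 35 gene lists, in COLO320DM (filled red), in COLO320DM with the GC offset (open red) and in SW480 (blue squares), with the number of genes tested in brackets. Cholesterol genes lie at −0.57 in COLO320DM and 0.13 in SW480, NF-kappaB targets at −0.00 and −1.72, and mitochondrially encoded mRNAs at 0.50 and 0.42.

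The transfected gene also differed within the HKDC1 group. HKDC1 had 6580.3, 9179 and 9640.0 CPM with its plasmid and at most 0.0238 CPM with empty vector, so replicate 1 had the lowest level, with a fitted change of −0.52 (SE 0.08). The cholesterol median was nearly equal in the plasmids, −0.57 (empty vector) and −0.56 (HKDC1 plasmid).

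Whether the difference of replicate 1 depended on the plasmid was tested as an interaction. With all 12 libraries in the fit, 5 of 23684 genes passed (0.0211%; 1829 at an unadjusted p under 0.05). Of these 5, MIF, MIF-AS1 and AP000350.4 overlap at 1 locus on chromosome 22, and their counts cannot be told apart. MIF, a secreted inflammatory cytokine, had 168, 253 and 290.0 CPM (empty vector) and 209.7, 229 and 216 CPM (HKDC1 plasmid), a difference of 0.61 (SE 0.11, adjusted p = 0.0299, or 0.573 with the GC offset). The others were the pseudogenes AC243562.1 and AC103705.1. The count changed with the fit: with the 6 COLO320DM libraries alone (2 residual degrees of freedom) 917 genes passed (4.47% of 20531), 645 of them above 0, and with the GC offset in that fit 71 (0.346%). No gene differed between replicates 2 and 3 by edgeR (514 at an unadjusted p under 0.05, and 1 call by DESeq2).

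Across genes the 2 lines' splits overlapped in part. Of all 530 genes higher in replicate 1 of COLO320DM 116 (21.9%) were higher in SW480 by the test, which is near the background of 22.6%, and of the 1082 that were lower 367 (33.9%) were lower there, against 23.2%. Genes with more counts overlapped more. Of the 76 with at least 5 CPM that were higher in replicate 1 of COLO320DM, 50 (65.8%) were higher in replicate 1 of SW480 by the test, against 32.6% of all such genes, and 6 were lower. Of the 185 that were lower, 95 (51.4%) were lower in SW480, against 23.5%, and 32 (17.3%) were higher. CD44 and the cholesterol enzymes HMGCS1, FDFT1, SQLE and MSMO1 were among the 32. The difference between the lines passed the test in 108 (58.4%) of the 185 and 33 (43.4%) of the 76, against 37.4% of all genes with at least 5 CPM. Since these genes were chosen for their change in COLO320DM, a difference from SW480 is partly fixed by the choice. Over all 23684 genes the change was lower in COLO320DM in 3399 and higher in 2752, and with scaling to library totals in 2039 and 4334, beside which the SW480 median over all genes moved from −0.02 to −0.16. The SW480 split was also known when the comparison was chosen, and what sets replicate 1 apart in either line is not labelled.

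**Figure D5:**
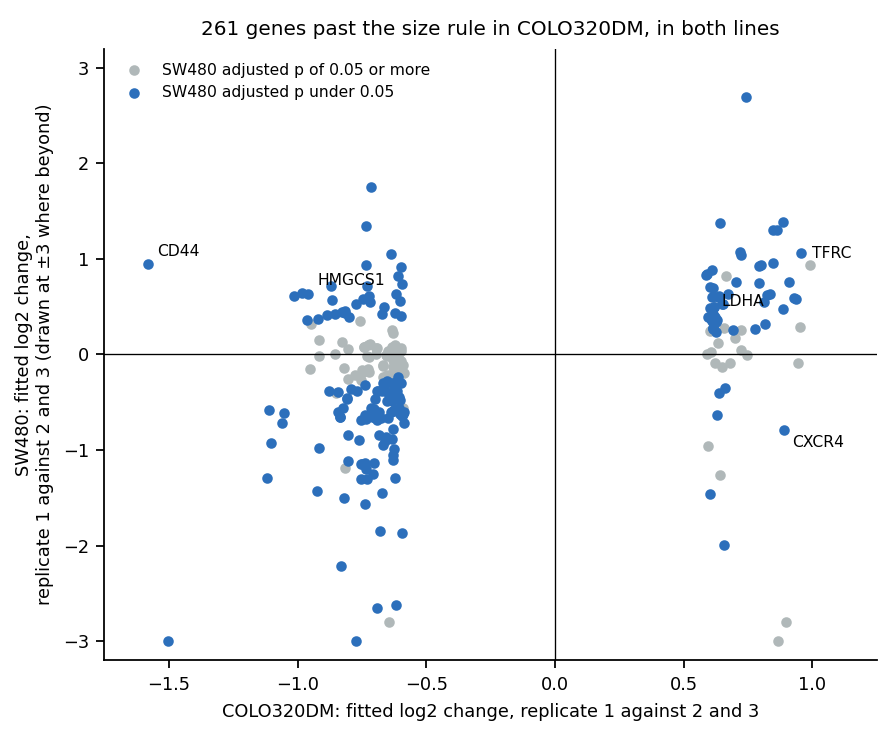
Fitted log2 change of replicate 1 against replicates 2 and 3 in COLO320DM (x axis) and SW480 (y axis, with 3 genes beyond ±3 drawn at the limit) for the 261 genes with at least 5 CPM past the rule in COLO320DM, in blue where the SW480 test passed. TFRC (0.95 and 1.06) and LDHA lie on the same side in both lines, while CD44 (−1.58 and 0.94), HMGCS1 and CXCR4 lie on opposite sides.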

How the data were processed

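Gene counts were deposited by the authors as 1 table of whole-number counts for 60623 genes in all 12 libraries, with no normalization. Per the submitters' processing notes HISAT2 2.1.0, limma and GRCh38 were used, and the counting tool and annotation are not given in the sources used here. Every column matched 1 sample title, so 0 columns were left unmapped. Per the labels' protocols, mRNA was isolated on poly-T beads from total RNA with an integrity number above 8.

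The counts were fitted as deposited with edgeR 4.0.16 (R 4.3.3): filterByExpr (minimum count 10, total 15) kept 23684 genes, TMM factors scaled the libraries, and the quasi-likelihood model held 4 group means and a replicate 1 term for each line (6 residual degrees of freedom). The replicate 1 term of SW480 and its difference from that of COLO320DM were tested at a Benjamini-Hochberg adjusted p under 0.05 over all genes. The COLO320DM term chose the contrast and is described by size only. The difference contains it, so its calls are a description. The interaction came from a model with a replicate 1 term in each group. Replicate 2 against 3 came from a model with a term for each replicate number within each line. SE is the change divided by the square root of F, so it is the model's own and not a spread of cultures. Since the labels do not say that replicates were separate cultures, p-values measure the spread between these libraries.

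Named genes were the 15 highest and 15 lowest protein-coding genes with at least 1.5-fold in each plasmid without overlap and a mean of at least 5 CPM on the higher side; in each list, up to 4 members with the largest change and a mean of at least 1 CPM, and of the interaction the called genes. Other list members, such as the defining genes of a pathway or those past the size rule at lower levels, were named after their values were seen. The members and the 35 gene lists were chosen with earlier results of these data known. Deviations of same-numbered libraries from the group means correlated across plasmids at 0.402, 0.133 and 0.118 for replicates 1, 2 and 3. The first value belongs to the split that chose the contrast, and replicates 2 and 3 correlated as highly across numbers (0.15 and 0.159). The comparison of replicate 2 with 3 and the block fit took the numbers to pair the libraries, which these values cannot decide. A fit with the replicate number as a block was an alternative, beside other scalings, filters, folds, DESeq2 1.42.0 and leaving out each library. The GC offset (each library's median deviation from its line's mean log2 CPM in 20 bins of transcript GC, known for 97.9% of genes) and the minimum of 5 CPM were added after the data were seen. The fits were tested on simulated data before use. Depth per library (33790733 to 41594070 counts in COLO320DM) limits low genes, and members under 1 CPM rest on few counts. Counts and medians cover whole lists, and some list members are not reported here by name.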

Additional observations from a re-analysis of the deposited data

Results flagged for a closer look

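In 19 of the 30 genes named for the largest differences of replicate 1, the change differed between the lines by the test of the difference itself (edgeR's quasi-likelihood test, adjusted over all genes). Among all genes with at least 5 CPM the difference passed in 37.4%. Since the 30 genes were named for their COLO320DM change, which the difference contains, part of their count follows from the choice. On the log2 scale, as COLO320DM minus SW480, the difference was above 0 for CXCR4 (1.68), EGFLAM (4.77, with SW480 at or close to 0 CPM, so that the fitted value is no bound), BRCA2 (0.51), FAIM (0.75), XK (0.68) and PHLDB2 (0.44). It was below 0 for 2 genes that were higher in replicate 1 of both lines, CAPN6 (−1.95) and DNAJA1 (−0.35). Among genes lower in replicate 1 of COLO320DM it was −2.52 for CD44, −1.62 for FGFR3 and −1.62 for TUBB3. The cholesterol genes had −1.59 for HMGCS1, −1.32 for MSMO1 and −1.3 for FDFT1. The rest had −1.3 for CLU, −1.26 for RTN4R, −1.07 for DHRS2, −0.5 for H2AJ and −0.44 for ACSS2.

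The change of replicate 1 differed between the plasmids of COLO320DM in 5 genes, as HKDC1 plasmid minus empty vector. The pseudogene AC243562.1 had 4.45, with 0.165 CPM in replicate 1 with empty vector, and the pseudogene AC103705.1 had 1.68. The overlapping MIF, AP000350.4 and MIF-AS1 had 0.61, 0.62 and 0.6, which are 1 signal rather than 3. With the GC offset none of these 3 passed, while both pseudogenes did. Single genes were not screened for a library far from its group, since each group held 3 libraries.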

How the results depend on the processing

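With replicate numbers as a replicate block, 541 genes were higher and 1078 lower in replicate 1 of COLO320DM. Of the 530 and 1082 genes of the main fit, 117 and 351 moved the same way in SW480 with this block. The lines differed in 3195 genes below 0 and 2580 above, so no count moved by over 1.5 times. Scaling to library totals gave 2039 and 4334 for that difference and 2 interaction genes. With no filter beyond 1 count, 1385 genes were higher and 16 passed the interaction. DESeq2 called 1 gene between replicates 2 and 3 and 11 for the interaction. The COLO320DM libraries alone gave 917 interaction genes, and with the GC offset 71, with 720 genes lower. The size rule itself set the counts: 138 higher and 393 lower at 2-fold, 1694 and 2483 at the lower fold limit tried, and 76 and 185 at a minimum of 5 CPM.

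Leaving out each library in turn gave 633 to 1103 genes higher and 1225 to 1889 lower, more than with all 6, since the rule of no overlap then spans fewer libraries, and the highest counts came without the HKDC1 replicate 1 library of COLO320DM (966 and 1579 without the empty-vector one). It gave 0 to 9 genes between replicates 2 and 3 and 2 to 14 for the interaction (4 fits, since it needs both replicate 1 libraries, with 14 without HKDC1 replicate 2 and 2 without HKDC1 replicate 3). Of the genes called in the main fit, 69 to 109 and 242 to 372 were shared with SW480 on the higher and lower side. The difference between lines gave 1811 to 3411 below 0 and 1654 to 3749 above. Without the empty-vector replicate 1 library of SW480 the last counts were 1811 and 1654, and the shared ones 69 and 242. None of the 30 genes of largest change reversed under an alternative. Of the gene values under alternatives 368 moved beyond the spread and 1900 did not, and of the list medians 159 and 331. Under the alternatives the cholesterol median ran from −0.59 to −0.55 and the change of HMGCS1 from −1.09 to −0.86. Medians of glycolysis, HIF targets, NF-kappaB targets and Notch genes changed sign with the scaling or the GC offset, and those of glycolysis, endoplasmic reticulum chaperones, NRF2 targets, nuclear oxidative phosphorylation and interferon targets in some fits with a library left out. The causes of these moves were not tested. Genes under 1 CPM are limited by counting error.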
